A study of Mus musculus with 7 samples.

Results

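A group of 6 genes outside the chaperone families was followed in the cerebral cortex of mice that lack the creatine (Cr) transporter: *Maml3*, *Ldb2*, *Mapk11*, *Ttll5*, *Zbtb40* and *Glt8d2*. They were picked by name because the study lists each of them as lower in bulk cortex and again as lower in the nuclei of excitatory neurons, so 6 of the 24346 genes in the deposited table are described here. The difference between genotypes in these same animals chose the genes. For them it is therefore given as a description with no test, and only genes and measures that did not enter the choice are tested.

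Cortical RNA came from 4 CrT-/y and 3 CrT+/y males, 1 library per animal, on a C57BL/6J background at postnatal day 100. On their only X chromosome, CrT-/y males lack exons 5 to 7 of *Slc6a8*, the gene of the Cr transporter, and CrT+/y males are their wild-type littermates. The values are FPKM, fragment counts that the authors divided by transcript length and library size. *Slc6a8* itself was at 12.4 to 15.7 FPKM in CrT-/y cortices, against 28.0 to 32.3 FPKM in CrT+/y cortices. The table holds 1 value per gene, so the exons behind the remaining level were not examined. From the value that 1 fragment takes in weakly expressed genes, the libraries held an estimated 21700000 to 27600000 fragments in CrT-/y cortices. The estimate was 21900000 to 24600000 in CrT+/y cortices. That value was sought in the same fixed window in every library, which bounds the estimates. They are therefore rough and do not compare the depths of the genotypes. Each marker examined for excitatory and inhibitory neurons, astrocytes, oligodendrocytes and their precursors, microglia and vessels had a mean of at least 1 FPKM.

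The genes belong to separate pathways. *Maml3* encodes a Mastermind-like coactivator: when Notch is cleaved, its intracellular part enters the nucleus and joins the DNA-binding factor RBPJ, and a Mastermind protein locks onto both and recruits histone acetyltransferases. *Ldb2* encodes a LIM domain binding protein, an adaptor that links LIM-homeodomain and LIM-only factors into larger complexes, and it is known from deep layer projection neurons. *Mapk11* encodes p38 beta, a stress-activated protein kinase that is switched on by the kinases MKK3 and MKK6. *Ttll5* encodes an enzyme that starts chains of glutamate on tubulin and also binds coactivators of nuclear receptors. *Zbtb40* encodes a protein with a BTB domain and zinc fingers, a plan shared by many transcription factors, and *Glt8d2* encodes a protein with a glycosyltransferase family 8 domain.

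Promoter windows from RefSeq (build GRCm38.p6, from 250 bases before to 50 bases after the transcription start) were matched by symbol for 3 of the 6 genes, *Maml3*, *Mapk11* and *Ttll5*. They are shown because these genes have little in common but a lower level in CrT-/y cortex, and because *Ttll5* starts close to another gene that was tested. Capitals mark the short motifs that were searched on both strands.
Maml3, chr3:52104957-52105256, minus strand: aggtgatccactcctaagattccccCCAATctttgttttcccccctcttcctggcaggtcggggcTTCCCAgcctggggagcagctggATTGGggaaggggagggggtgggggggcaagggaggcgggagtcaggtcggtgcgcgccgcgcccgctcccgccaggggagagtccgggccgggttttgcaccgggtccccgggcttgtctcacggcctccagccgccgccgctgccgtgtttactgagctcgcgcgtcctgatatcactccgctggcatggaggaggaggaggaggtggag
Mapk11, chr15:89149557-89149856, minus strand: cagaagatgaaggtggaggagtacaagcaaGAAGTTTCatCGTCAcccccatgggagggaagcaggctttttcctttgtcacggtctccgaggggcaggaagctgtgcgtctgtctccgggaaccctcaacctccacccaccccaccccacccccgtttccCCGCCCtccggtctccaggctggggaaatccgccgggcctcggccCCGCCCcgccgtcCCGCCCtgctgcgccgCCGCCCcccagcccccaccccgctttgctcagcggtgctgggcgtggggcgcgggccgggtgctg
Ttll5, chr12:85824670-85824969, plus strand: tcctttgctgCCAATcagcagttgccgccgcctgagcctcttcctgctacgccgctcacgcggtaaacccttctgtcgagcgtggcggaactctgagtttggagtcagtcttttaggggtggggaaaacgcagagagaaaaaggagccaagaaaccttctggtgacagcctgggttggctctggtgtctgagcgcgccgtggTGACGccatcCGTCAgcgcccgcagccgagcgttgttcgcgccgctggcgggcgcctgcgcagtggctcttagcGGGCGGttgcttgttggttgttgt

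All 3 windows were rich in G and C (68.3% in *Maml3*, 69.7% in *Mapk11* and 61.7% in *Ttll5*), against a median of 52.7% over 32817 windows. No motif stood in all 3. The CCAAT box (CCAAT) was in the windows of *Maml3* and *Ttll5* and in 37.4% of all windows. The core of the cAMP response element (TGACG) was in those of *Mapk11* and *Ttll5* and in 20.8% of all, and the GC box (GGGCGG) was in the same pair and in 35.6% of all. *Mapk11* had the only heat shock element core (GAANNTTC, in 7.86% of all windows), and *Maml3* the only RBPJ site (TGGGAA, in 25.6%). The E-box CACGTG was in none of the 3 and in 7.15% of all windows. A match of letters is not a bound site.

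*Maml3*, the Notch coactivator, was at 1.68, 1.54, 1.48 and 1.45 FPKM in CrT-/y animals 0 to 3, against 2.60, 2.31 and 2.26 FPKM in CrT+/y animals 1 to 3. The highest CrT-/y value was 74.5% of the lowest CrT+/y value, so the genotypes were apart. Mean levels were 1.54 ± 0.105 (SD, n = 4) against 2.39 ± 0.183 FPKM (SD, n = 3), a log2 difference of -0.60 (standard error 0.12). The gene lies on chromosome 3 of GRCm38 from 51685907 to 52105076, on the minus strand, and its longest transcript has 5 exons.

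*Ldb2*, the LIM adaptor and the most abundant of the genes, was at 22.6, 22.2, 24.9 and 21.0 FPKM in CrT-/y animals 0 to 3, against 33.1, 28.5 and 35.1 FPKM in CrT+/y animals 1 to 3. Its genotypes lay closest together, with the highest CrT-/y value at 87.2% of the lowest CrT+/y value. Mean levels were 22.7 ± 1.64 (SD, n = 4) against 32.3 ± 3.38 FPKM (SD, n = 3), a log2 difference of -0.50 (standard error 0.084). It lies on chromosome 5 from 44472132 to 44799680, on the minus strand.

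*Mapk11*, the p38 beta kinase, was at 12.4, 12.1, 12.6 and 13.9 FPKM in CrT-/y animals 0 to 3, against 19.5, 17.2 and 20.1 FPKM in CrT+/y animals 1 to 3. No CrT-/y animal reached the lowest CrT+/y animal. Mean levels were 12.8 ± 0.770 (SD, n = 4) against 18.9 ± 1.57 FPKM (SD, n = 3), a log2 difference of -0.57 (standard error 0.075). It is a compact gene of 7143 bp on chromosome 15, from 89142486 to 89149628 on the minus strand.

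*Ttll5*, the tubulin glutamylase, was at 7.02, 6.11, 6.41 and 6.46 FPKM in CrT-/y animals 0 to 3, against 10.1, 10.1 and 8.67 FPKM in CrT+/y animals 1 to 3. The genotypes did not overlap, and CrT+/y animal 3 was the lowest of its group. Mean levels were 6.50 ± 0.380 (SD, n = 4) against 9.64 ± 0.837 FPKM (SD, n = 3), a log2 difference of -0.56 (standard error 0.082). It lies on chromosome 12 from 85824659 to 86061893, on the plus strand, and its longest transcript has 34 exons.

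*Zbtb40*, the zinc finger gene, was at 1.49, 1.43, 1.43 and 1.31 FPKM in CrT-/y animals 0 to 3, against 2.05, 2.08 and 2.12 FPKM in CrT+/y animals 1 to 3. Animals of a genotype were most alike in this gene, and the gap between genotypes was the widest, with the highest CrT-/y value at 72.8% of the lowest CrT+/y value. Mean levels were 1.42 ± 0.0740 (SD, n = 4) against 2.08 ± 0.0377 FPKM (SD, n = 3), a log2 difference of -0.53 (standard error 0.12). It lies on chromosome 4 from 136979732 to 137048801, on the minus strand.

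*Glt8d2*, the glycosyltransferase domain gene, was at 5.74, 5.71, 7.01 and 6.74 FPKM in CrT-/y animals 0 to 3, against 11.2, 8.39 and 10.4 FPKM in CrT+/y animals 1 to 3. It spread most within the genotypes, and its groups were still apart. Mean levels were 6.30 ± 0.674 (SD, n = 4) against 9.99 ± 1.45 FPKM (SD, n = 3), a log2 difference of -0.65 (standard error 0.12), the largest of the 6. It lies on chromosome 10 from 82650433 to 82690650, on the minus strand.

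**Figure D1:**
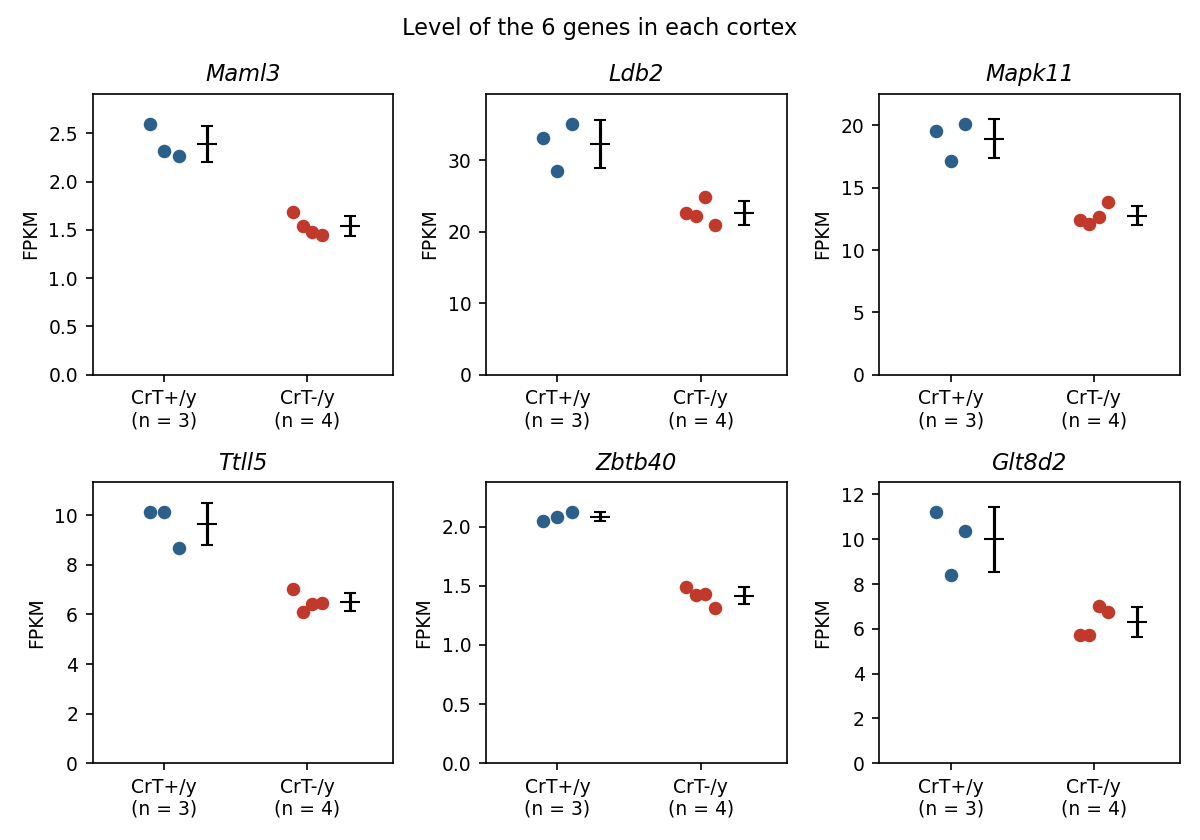
FPKM of each of the 6 genes (vertical axes, from 0) in the 3 CrT+/y (blue) and 4 CrT-/y (red) cortices; each point is 1 animal, and the black mark and bar are the mean and SD. In every panel the red points lie below the blue ones, from 1.31 to 1.49 against 2.05 to 2.12 FPKM in *Zbtb40* to 21.0 to 24.9 against 28.5 to 35.1 FPKM in *Ldb2*.

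The 6 genes kept 63.1% to 70.3% of the CrT+/y mean (median 67.4%). In bulk tissue, fewer cells that express a gene and less RNA per cell cannot be told apart. In its single nuclei, which came from other libraries, the paper detected no difference between genotypes in the proportions of the main cell populations. All 6 genes had every CrT-/y animal below every CrT+/y animal, as did 15.0% of the 12988 genes tested, which average 1 FPKM or more. The choice of the genes fixes their count, and nothing is read from it. Differences of this size were at the edge of the table: in order from the lowest log2 difference, *Glt8d2* was the 73rd gene and *Ldb2* the 178th. On levels, *Zbtb40* and *Maml3* were above only 7.25% and 8.82% of the tested genes, *Ttll5* and *Glt8d2* above 38.7% and 38.8%, *Mapk11* above 59.9% and *Ldb2* above 75.4%. From the fragment estimate, the values of *Zbtb40* rest on about 223 to 376 fragments per animal, those of *Maml3* on 278 to 471 and those of *Ldb2* on 1249 to 2244. *Zbtb40* and *Maml3*, and *Ttll5* and *Glt8d2*, were neighbours in level whose ranges overlapped in at least 1 genotype.

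The table of the study for excitatory nuclei gives 758 symbols as downregulated, of which 711 could be tested in these cortices. The nuclei came from other libraries than the bulk samples, and only their symbols were used. Of the 711, limma called 113 lower in bulk (adjusted p-value under 0.1), or 15.9%, against 7.25% of all genes tested. The 113 include the 6 genes, which were picked from this overlap, and are part of the 941 genes called lower in the whole table. Of the same 711, 3 were called higher (2.90% of all genes tested were). Their median log2 difference was -0.12, against -0.03 over all tested genes. Ordered from the lowest difference, *Glt8d2* was the 6th of the 711, *Maml3* the 9th, *Mapk11* the 12th, *Ttll5* the 13th, *Zbtb40* the 17th and *Ldb2* the 19th.

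Animals of a genotype did not deviate together over the 6 genes. Among CrT-/y animals, animal 0 was highest in *Maml3*, *Ttll5* and *Zbtb40*, animal 2 in *Ldb2* and *Glt8d2*, and animal 3 in *Mapk11*. Over the 7 animals, the correlation of the deviations from the genotype means was below 0 in 7 of the 15 pairs of genes and above 0 in 8. It ran from -0.46 between *Mapk11* and *Zbtb40* to 0.79 between *Mapk11* and *Glt8d2*, with a median of 0.053. These points share the scaling of their libraries, and with 7 animals they describe only these cortices.

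The closest relatives and pathway partners of the 6 genes were compared between genotypes next, in lists that were drawn up with earlier results of these data known. The 7 lists of such genes, with the 6 genes themselves left out, held 161 tested genes. Of these, 9 were called lower (5.59%, against 7.25% of all genes tested) and 3 higher (1.86%, against 2.90% of all), by limma at the same threshold. These shares were close to those of all genes. The split depended on how the libraries were scaled to each other. Of all genes, 941 were called lower and 377 higher as deposited, and 555 and 528 after quantile normalization. After upper quartile scaling they were 499 and 604, and the lists held 3 lower and 6 higher genes. The paper used limma at the same threshold, names no transformation or filter, and reports slightly more upregulated than downregulated genes. Of the 12 list genes called, only *Gadd45a* kept its call under all 19 alternative settings, and the others kept it under 5 to 13 of them.

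**Figure D2:**
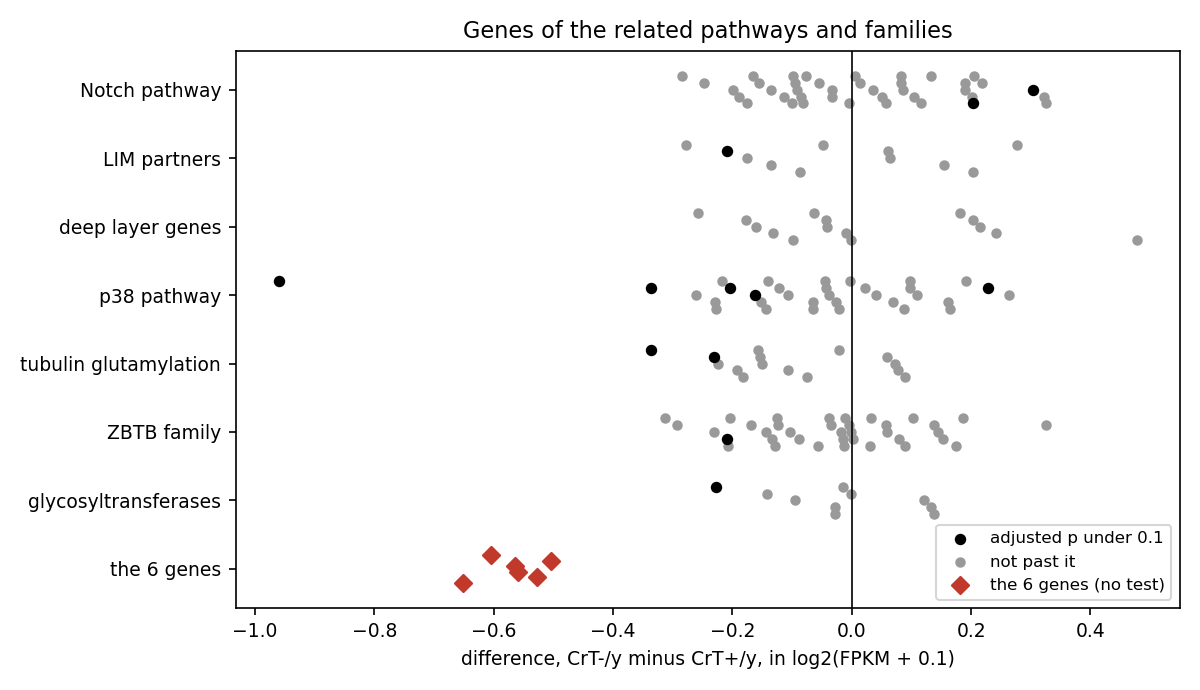
Log2 difference between CrT-/y and CrT+/y cortices (horizontal axis, on the log2(FPKM + 0.1) scale) for each tested gene of the 7 lists (rows); black points passed an adjusted p-value of 0.1 with limma, grey points did not, and red diamonds are the 6 genes, which have no test. The lists scatter around 0, with *Gadd45a* at -0.96 in the p38 pathway as the one gene beyond the red diamonds. The row on tubulin also holds genes that neither add nor remove glutamate.

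In the Notch pathway, the setting of *Maml3*, 40 genes were tested, with a median log2 difference of 0.00. None was called lower and 2 were called higher (5%, against 2.90% of all genes tested). Of the 40, 8 had an unadjusted limma p-value under 0.05, as had 3252 of all 12988 genes tested. *Hes6*, a basic helix-loop-helix factor of the HES family, was at 6.71 to 7.43 FPKM in CrT-/y and 5.03 to 6.11 FPKM in CrT+/y animals, a rise of 0.30 on the log2 scale (standard error 0.086, adjusted p = 0.082 with limma). *Dtx3*, a Deltex ubiquitin ligase, was at 68.3 to 70.7 against 55.6 to 65.4 FPKM, a rise of 0.20 (adjusted p = 0.093 with limma).
*Aph1a*, a subunit of the gamma-secretase that cuts Notch (0.20), and *Adam10*, the protease that cuts it first (-0.20), did not pass (adjusted p = 0.10 and 0.11 with limma). The other Mastermind genes lay near 0. *Maml1* was at 2.60 ± 0.161 (SD, n = 4) against 2.71 ± 0.185 FPKM (SD, n = 3), with a log2 difference of -0.06, and *Maml2* at 2.33 ± 0.259 against 2.40 ± 0.421 FPKM, with -0.03. Both signs turned with the trend on transcript length removed. *Maml3* made up 21.6% to 27.0% of the summed FPKM of the 3 genes in CrT-/y cortices, against 29.0% to 35.3% in CrT+/y cortices, a share that no scaling factor of a library can change.

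Among the LIM partners of *Ldb2*, 11 of 21 genes were tested, with a median of -0.05, and 10 were too weakly expressed. *Ssbp3*, which encodes a single-stranded DNA binding protein that stabilizes LIM domain binding proteins, was the only one called. It was at 43.2 to 46.9 FPKM in CrT-/y and 49.3 to 56.9 FPKM in CrT+/y animals and fell by 0.21 on the log2 scale (adjusted p = 0.093 with limma). *Lhx2*, a LIM-homeodomain factor, had no overlap between genotypes, at 23.9 to 27.0 against 29.2 to 36.7 FPKM, and missed the threshold (-0.28, adjusted p = 0.10 with limma).
*Lmo2*, a LIM-only factor, was at 0.28 (adjusted p = 0.16 with limma), and *Ldb1*, the paralog of *Ldb2*, at 34.6 ± 2.28 (SD, n = 4) against 31.1 ± 1.35 FPKM (SD, n = 3), with a log2 difference of 0.16 (adjusted p = 0.18 with limma). *Ldb2* held 37.0% to 42.0% of the summed FPKM of *Ldb1* and *Ldb2* in CrT-/y cortices, against 47.8% to 54.2% in CrT+/y cortices, so that *Ldb1* was the more abundant adaptor in every CrT-/y animal and in CrT+/y animal 2.

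*Ldb2* is known from deep layer, mostly subcerebral, projection neurons. Of 15 tested genes known from the same neurons, none was called in either direction by limma, and the median log2 difference was -0.04. An unadjusted limma p-value under 0.05 was found in 1 of the 15, and in 3252 of all 12988 genes tested. *Igfbp4*, which encodes a binding protein of insulin-like growth factors, was at 34.4 to 36.3 FPKM in CrT-/y animals, against 45.2, 34.8 and 48.5 FPKM in CrT+/y animals (-0.26, adjusted p = 0.16 with limma), so its genotypes overlapped. The next genes by p-value, *S100a10* (-0.16), *Ntng1* (0.24) and *Cntn6* (0.21), went in both directions (adjusted p = 0.20, 0.25 and 0.25 with limma).

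The p38 pathway of *Mapk11* held 33 tested genes with a median of -0.04. Of these, 4 were called lower (12.1%, against 7.25% of all genes tested) and 1 higher (3.03%, against 2.90% of all). *Gadd45a*, a stress-induced gene whose family binds the upstream kinase MAP3K4, was at 2.03, 1.95, 2.24 and 2.34 FPKM in CrT-/y animals 0 to 3, against 3.79, 5.09 and 3.96 FPKM in CrT+/y animals 1 to 3. It kept 50.0% of the CrT+/y mean, with a log2 difference of -0.96 (standard error 0.13, adjusted p = 0.018 with limma).
*Map2k6*, the gene of MKK6, one of the direct activators of p38, was at 7.14 to 7.99 against 8.62 to 10.3 FPKM and fell by 0.34 on the log2 scale (adjusted p = 0.054 with limma). *Map3k5*, the gene of the upstream kinase ASK1, fell by 0.20 (10.4 to 10.9 against 12.1 to 12.5 FPKM, adjusted p = 0.069 with limma), and *Taok2*, another upstream kinase, fell by 0.16 (adjusted p = 0.086 with limma). *Rps6ka4*, the gene of the downstream kinase MSK2, rose from 13.6 ± 0.745 (SD, n = 3) to 15.9 ± 0.523 FPKM (SD, n = 4), by 0.23 on the log2 scale (adjusted p = 0.069 with limma). *Map2k3*, the gene of MKK3, went the other way from *Map2k6* and did not pass (0.16, adjusted p = 0.49 with limma). No direction of the pathway is read from these calls.
The other p38 kinases differed less. *Mapk14*, the gene of p38 alpha, was at 32.0 ± 0.875 (SD, n = 4) against 32.8 ± 0.656 FPKM (SD, n = 3), with a log2 difference of -0.04 (adjusted p = 0.67 with limma) whose sign turned under quantile normalization and upper quartile scaling. *Mapk12*, the gene of p38 gamma, had 2.17 ± 0.209 FPKM in CrT-/y and 1.92 ± 0.0763 FPKM in CrT+/y animals (log2 difference 0.16, limma adjusted p = 0.41), and *Mapk13* had at most 0.591 FPKM in any animal and was not tested. *Mapk11* made up 25.7% to 28.5% of the summed FPKM of the 4 p38 genes in CrT-/y cortices, against 32.5% to 36.9% in CrT+/y cortices.

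The list for *Ttll5* held *Ttll* genes and other genes of tubulin modification. It was not limited to enzymes that add glutamate to tubulin or take it away, and also held, for example, *Ttl*, *Ttll3* and genes of enzyme subunits. In this list, 15 genes were tested with a median of -0.15. Of these, 2 were called lower (13.3%, against 7.25% of all genes tested). *Ttll12*, a member of the same ligase-like family, was at 4.13 ± 0.273 (SD, n = 4) against 5.23 ± 0.201 FPKM (SD, n = 3) and fell by 0.34 on the log2 scale (adjusted p = 0.059 with limma). *Agtpbp1*, which encodes the deglutamylase CCP1 and is mutated in Purkinje cell degeneration mice, was at 59.9 to 65.7 against 68.9 to 78.6 FPKM and fell by 0.23 (adjusted p = 0.072 with limma). *Ttll12* is not known to add glutamate, and *Agtpbp1* encodes an enzyme that removes it.
*Lrrc49* (-0.22, adjusted p = 0.13 with limma) and *Tpgs2* (-0.18, adjusted p = 0.14 with limma), which encode subunits of another tubulin polyglutamylase complex, did not pass. *Ttll7*, the most abundant glutamylase of the family, had 59.8 ± 2.02 (SD, n = 4) against 60.7 ± 1.38 FPKM (SD, n = 3), and *Ttll4* at 2.43 ± 0.126 against 2.60 ± 0.550 FPKM, with log2 differences of -0.02 and -0.07, and the sign of *Ttll7* turned after quantile normalization, upper quartile scaling and median centring. *Ttll5* was 5.51% to 6.34% of the summed FPKM of 13 *Ttll* genes in CrT-/y cortices, against 7.48% to 8.42% in CrT+/y cortices.

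Of the relatives of *Zbtb40*, 37 *Zbtb* genes were tested, with a median log2 difference of -0.01, and 1 was called lower. *Zbtb7a*, a transcriptional repressor, was at 31.3 ± 0.623 (SD, n = 4) against 36.2 ± 1.68 FPKM (SD, n = 3) and fell by 0.21 on the log2 scale (adjusted p = 0.061 with limma). *Zbtb18*, a transcriptional repressor needed for the development of cortical neurons and the most abundant of those named, was at 116.5 to 124.1 FPKM in CrT-/y and 122.7 to 154.5 FPKM in CrT+/y animals (-0.20, adjusted p = 0.14 with limma), and *Zbtb1* (-0.31) and *Zbtb25* (0.33) went in opposite directions (adjusted p = 0.13 for both with limma). *Zbtb40* took 0.356% to 0.395% of the FPKM of the 40 *Zbtb* genes in CrT-/y cortices, against 0.486% to 0.537% in CrT+/y cortices.

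For *Glt8d2*, 10 genes of glycosyltransferase family 8 or of other glycosyltransferase families were tested, with a median of -0.02. *Uggt1*, which encodes the enzyme that puts glucose back on misfolded glycoproteins in the endoplasmic reticulum, was the only one called, at 8.98 ± 0.367 (SD, n = 4) against 10.5 ± 0.0373 FPKM (SD, n = 3), and it fell by 0.23 on the log2 scale (adjusted p = 0.067 with limma). *Glt8d1*, the nearest relative by name, was at 7.97 to 8.38 FPKM in CrT-/y and 8.39 to 9.60 FPKM in CrT+/y animals, a log2 difference of -0.10 (adjusted p = 0.42 with limma). *Glt1d1* (0.14) and *Large*, which encodes a glycosyltransferase of dystroglycan (-0.14), did not pass (adjusted p = 0.35 and 0.41 with limma). *Glt8d2* held 40.5% to 45.8% of the summed FPKM of *Glt8d1* and *Glt8d2* in CrT-/y cortices, against 49.8% to 55.3% in CrT+/y cortices, so that *Glt8d1* had the higher level of the pair in every CrT-/y animal and, by a small margin, in CrT+/y animal 2.

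**Figure D3:**
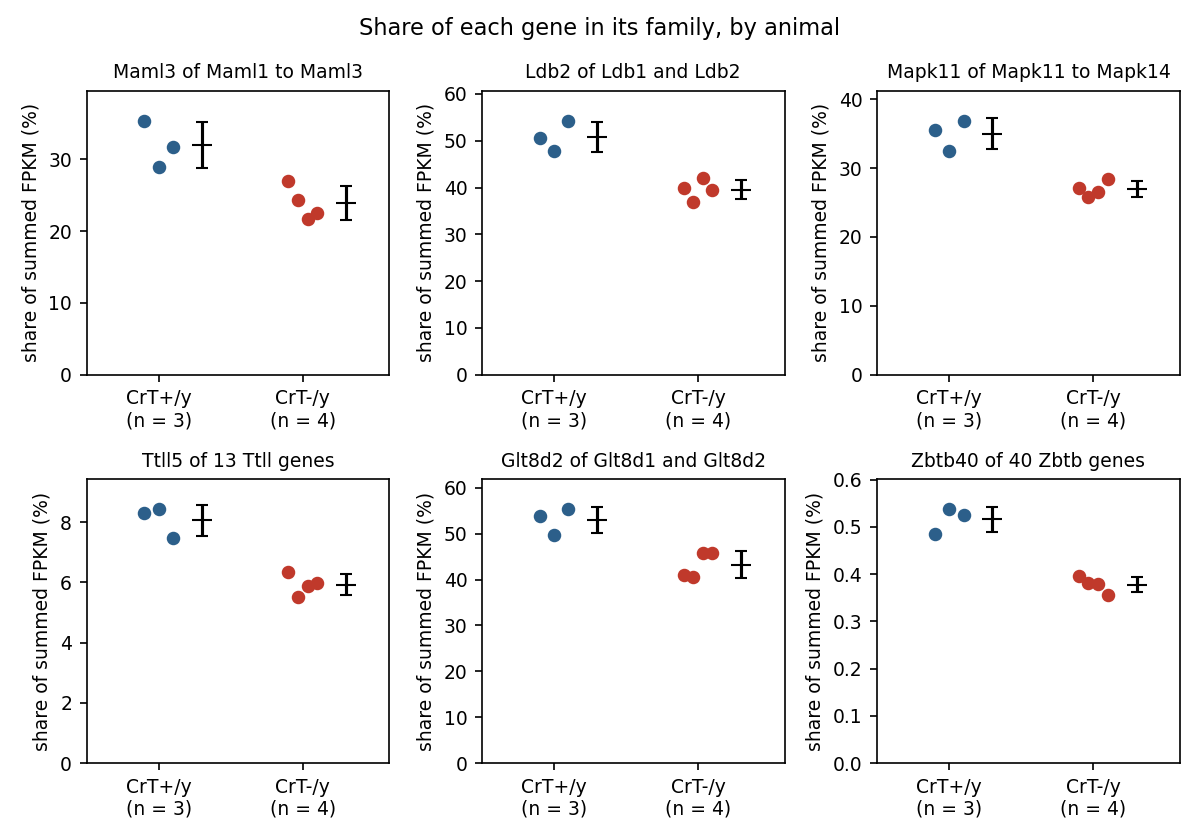
Share of each gene in the summed FPKM of its family (vertical axes in percent, from 0) in the 3 CrT+/y (blue) and 4 CrT-/y (red) cortices; points are animals, and black marks and bars are means and SDs. The genotypes are apart in every panel, as for *Mapk11* at 25.7% to 28.5% against 32.5% to 36.9%, and the numerators are the genes chosen for being lower.

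The genes beside the 6 on their chromosomes were examined next. *Mapk12* lies 1782 bp from *Mapk11* on the same strand, and its values are given above. On the other side of *Mapk11*, *Plxnb2*, a semaphorin receptor gene 5920 bp away, was at 12.4 ± 0.272 (SD, n = 4) against 11.0 ± 0.935 FPKM (SD, n = 3), with a log2 difference of 0.18 (adjusted p = 0.14 with limma). Both neighbours of *Mapk11* thus had a higher mean in CrT-/y animals.
In GENCODE, the start of *Ttll5* lies 108 bp from that of *0610007P14Rik*, which runs the other way. The *Ttll5* window printed above is set around the RefSeq start, which is 261 bp further into the gene, so it does not reach the GENCODE start. *0610007P14Rik* was at 34.2, 33.2, 33.9 and 30.8 FPKM in CrT-/y animals 0 to 3, against 39.4, 41.5 and 35.5 FPKM in CrT+/y animals 1 to 3. It was the only neighbour called, and it fell by 0.23 on the log2 scale (standard error 0.067, adjusted p = 0.086 with limma), a call that held under 5 of the 19 alternative settings.
*Ttll5* and *Glt8d2* share part of their span with a gene on the other strand. *Tgfb3*, a growth factor gene, overlaps *Ttll5* over 5149 bp and was at 4.13 ± 0.0193 (SD, n = 4) against 4.87 ± 0.332 FPKM (SD, n = 3), with a log2 difference of -0.23 (adjusted p = 0.12 with limma). *Tdg*, a DNA glycosylase gene, overlaps *Glt8d2* over 367 bp and differed by -0.07 (adjusted p = 0.54 with limma). Whether strand was used in counting is not given in the sources used here, so reads from these stretches cannot be told apart.
The remaining tested neighbours were *Foxo1* beside *Maml3* (0.18), *Tapt1* beside *Ldb2* (0.06), *Ift43* beside *Ttll5* (-0.10), *Epha8* beside *Zbtb40* (0.56), and *1190007I07Rik* (-0.04) and *Hcfc2* (0.02) beside *Glt8d2*. None passed, with adjusted p-values from 0.19 to 0.92 with limma.

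*Maml3*, *Ldb2* and *Ttll5* are among the longest in the table. They span 419170 bp, 327549 bp and 237235 bp, more than 97.8%, 96.7% and 94.7% of the tested genes, whose median span was 25314 bp. *Mapk11*, at the other end, was longer than 17.1% of them. Over all genes, the share called lower was 5.32% below 10 kb of span, 6.83% from 10 to 50 kb, 9.12% from 50 to 200 kb and 9.98% above 200 kb, and the share called higher went from 5.32% to 0.939% over the same bins. The median log2 difference was 0.02 in the first bin and -0.07 in the last. With each library's dependence on transcript length taken out, these medians were 0.02 and -0.01, and the 6 genes differed by -0.63 to -0.46. Transcript length is not span: *Ldb2* exceeded 96.7% of the tested genes in span but 36.5% in transcript length. No trend on span was removed, so the part of span in the differences of the 3 long genes was not tested.

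Markers of cell types were set beside the 6 genes. Of all genes tested, 7.25% were called lower and 2.90% higher, and 15.0% had every CrT-/y animal below every CrT+/y animal. Of 8 excitatory neuron markers, 3 were called lower and none higher, with a median log2 difference of -0.24. Their summed level was 2629 to 2863 FPKM in CrT-/y and 2834 to 3570 FPKM in CrT+/y animals, so the genotypes overlapped. The most abundant markers weigh most in such sums, here *Nrgn* and *Camk2a*, with means of 1134 and 837 FPKM in CrT-/y animals. Vascular markers, of interest for *Ldb2*, which endothelial cells also express, had 3 of 7 called lower: *Flt1*, *Pecam1* and *Rgs5*. The endothelial markers *Cldn5* (-0.16), *Tek* (-0.03) and *Kdr* (-0.18) and the mural marker *Pdgfrb* (0.03) were not called. The vascular sum was 90.5 to 111.8 against 112.0 to 139.5 FPKM, without overlap. It weighs *Rgs5* most, a mural marker with means of 37.5 against 49.7 FPKM, whose own values overlapped between genotypes.
The sums of 6 astrocyte markers (605.0 to 671.3 against 672.5 to 734.8 FPKM, none called) and 5 oligodendrocyte precursor markers (68.2 to 83.7 against 85.2 to 89.1 FPKM, 1 called lower) did not overlap either. These gaps were narrow, and the sums were not recomputed under other scalings of the libraries. Of the astrocyte markers, 5 had a log2 difference below 0, and *Gfap* lay above it (0.34). Those of inhibitory neurons (854.3 to 992.9 against 919.9 to 937.5 FPKM, 2 of 8 called higher), oligodendrocytes (853.7 to 1310 against 1186 to 1557 FPKM, none of 6 called) and microglia (108.1 to 115.4 against 110.8 to 122.4 FPKM, none of 6 called) overlapped. Fibroblast markers summed to 26.0 to 35.8 against 20.6 to 28.3 FPKM, with 1 of 6 called higher.
Markers of regions next to the cortex varied between single animals. Choroid plexus markers summed to 405.2 FPKM in CrT+/y animal 2 and to 6.35 to 54.6 FPKM in the other 6 animals, striatum markers to 132.1 to 327.4 FPKM in CrT-/y and 75.2 to 283.9 FPKM in CrT+/y animals, and olfactory bulb markers to 6.70 to 18.7 against 3.71 to 7.08 FPKM, with 1 of 3 tested called higher. None of these lists had a marker at 0 in every animal. Their part in the levels of the 6 genes was not tested. Without CrT+/y animal 2, the 6 differences had a median of -0.61, against -0.56 with all animals.

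**Figure D4:**
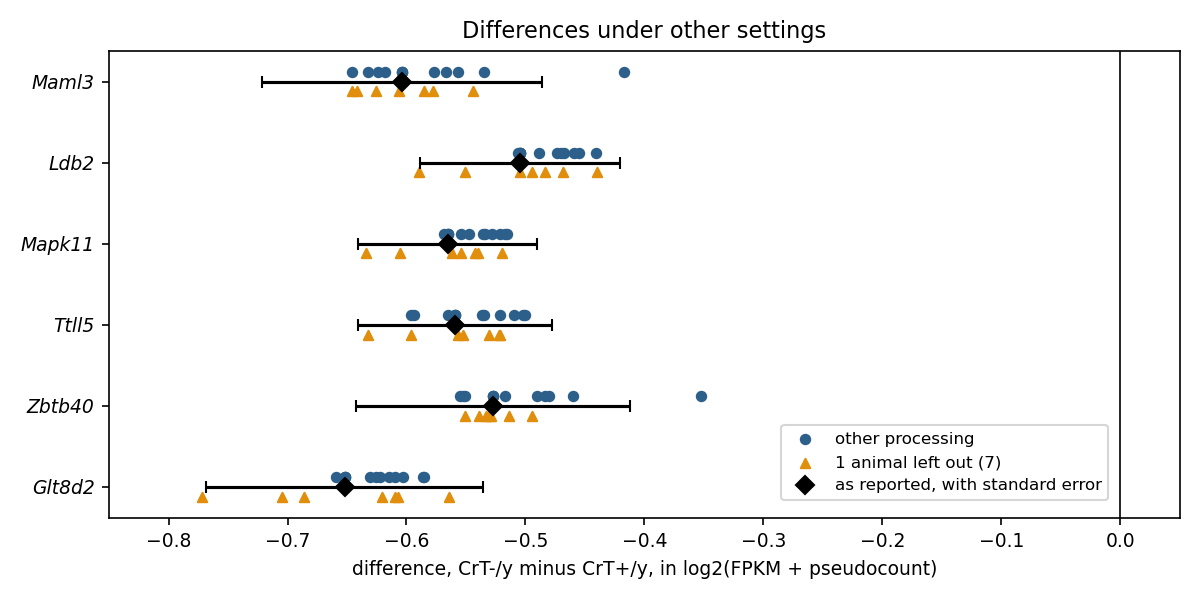
Log2 difference between CrT-/y and CrT+/y cortices for the 6 genes (horizontal axis): black diamonds and bars are the values reported and their standard errors, blue points 12 other ways of processing, and orange triangles the 7 fits that each left out 1 animal. All points lie below 0, and the 2 set apart, *Zbtb40* at -0.35 and *Maml3* at -0.42, come from adding 1 instead of 0.1 to FPKM. The genes were chosen for being lower and their genotypes did not overlap, so leaving out 1 animal could not turn a sign.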

How the data were processed

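Cortical RNA of 4 CrT-/y and 3 CrT+/y animals was analysed, grouped by the submitters' labels. The authors aligned reads to mm10 with the Tuxedo protocol, kept unique alignments on known exons or splice junctions, and deposited FPKM per gene and animal. Bowtie and Cuffnorm are named in the submitters' processing notes. FPKM are not counts, so no count model was used.

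The filter kept means of 1 FPKM or more, and the test used log2(FPKM + 0.1) in limma 3.58.1 (R 4.3.3): genotype alone, variance trend on expression, Benjamini-Hochberg adjustment over all 12988 genes, called under 0.1. Fold changes of weak genes are understated on this scale. Summaries used Python 3.11.15. Fragments were estimated from FPKM times length in single-transcript genes, within 0.02 to 0.06. Positions and lengths are from GENCODE M21 (GRCm38), with 23965 of 24346 symbols matched, and promoters from RefSeq. The fit was tested on simulated data.

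The 6 genes and all lists were chosen with earlier results of these data known. Named were the 6 genes, list genes called or with the 4 smallest p-values, close paralogs, chromosomal neighbours and the 2 genes most like each. The 19 alternatives were other pseudocounts (1, 0.01), filters (none, 0.1 FPKM), scalings, length trend removal, no variance trend, array weights, a replicate block, and each animal left out. P-values set the genotype difference against the spread between these animals, with each gene's variance moderated by limma over all tested genes.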

Additional observations from a re-analysis of the deposited data

Results flagged for a closer look

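In the 4 CrT-/y animals, 1 value stood apart from the other 3 in 4 of the 53 genes examined in this way, and chance flags about 1 gene in 20. *Mapk14* was at 30.7 FPKM in CrT-/y animal 0 and at 32.4 to 32.5 FPKM in the others. *Ttll12* was at 4.53 FPKM in animal 2 against 3.94 to 4.03 FPKM. In animal 3, *Uggt1* was at 9.52 FPKM against 8.73 to 8.86 FPKM, and *Ntng1* at 6.12 FPKM against 7.02 to 7.16 FPKM. None of the 6 genes had such a value.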

How the results depend on the processing

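The differences of the 6 genes stayed below 0 under all 19 alternatives, with medians from -0.61 to -0.50. In each gene every CrT-/y value lay below every CrT+/y value. Leaving out an animal or changing the pseudocount or the filter therefore could not turn a sign, and only the sizes are informative there. They moved by more than the spread between animals in *Maml3* (-0.42) and *Zbtb40* (-0.35) with a pseudocount of 1, and in *Zbtb40* with the length trend removed (-0.46).

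Genes called numbered 1318 (941 lower). They were 730 (524) without a filter, 576 (410) with the replicate block and 367 (227) with the block and the length trend removed, and 64 to 3736 (53 to 2394) with 1 animal left out, lowest without CrT-/y replicate 1 and highest without CrT+/y replicate 3. Lower calls were 527 after median centring, 555 after quantile normalization, 499 after upper quartile scaling and 625 without the variance trend. Calls in the lists (12) became 21 with array weights, 7 with median centring, 2 with the block, 1 with the block and length trend removed, and 1 to 40 with 1 animal left out. The cause was not tested. In the block, CrT-/y animal 0 has no same-numbered partner, so the block gives the same differences as leaving that animal out (*Maml3* at -0.65 in both). These alternatives are thus not independent. What the replicate numbers stand for is not given in the sources used here. Same-numbered animals' deviations correlated at -0.078, 0.046 and -0.051, which does not settle whether the numbers pair animals.

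Signs turned in small differences. With the length trend removed, *Maml1* was at 0.00621, *Maml2* at 0.0327, *Mapk14* at 0.00624 and *Ttll7* at 0.0452, and with the block as well they were at 0.0336, 0.0765, 0.0274 and 0.0400. The block alone put *Maml2* at 0.010. Upper quartile scaling put *Maml2* at 0.0144, *Mapk14* at 0.0117, *Ttll7* at 0.0276 and *1190007I07Rik* at 0.0141, median centring *Maml2* at 0.00361, *Ttll7* at 0.0149 and *1190007I07Rik* at 0.00194, quantile normalization *Mapk14* at 0.0265 and *Ttll7* at 0.0390, and array weights *1190007I07Rik* at 0.0150 and *Hcfc2* at -0.00878. With 1 animal left out, *Maml2* ranged from -0.133 to 0.0979, *Ttll4* from -0.257 to 0.0221, *Tapt1* from -0.0284 to 0.111, *1190007I07Rik* from -0.164 to 0.0543 and *Hcfc2* from -0.0556 to 0.110.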

Other observations

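For each of the 6 genes, the 2 tested genes with the highest Pearson correlation of their deviations from the genotype means over the 7 animals were taken. They were *Cops4* (0.989) and *Tceal3* (0.989) for *Maml3*, *Rad1* (0.999) and *Lst1* (0.996) for *Ldb2*, *Nos1ap* (0.989) and *Aifm3* (0.985) for *Mapk11*, *Efcab2* (0.989) and *Gm7694* (0.987) for *Ttll5*, *Psat1* (0.986) and *Evi2a* (0.984) for *Zbtb40*, and *Fcer1g* (0.986) and *Arl16* (0.975) for *Glt8d2*. Between 47 genes (*Zbtb40*) and 206 genes (*Ttll5*) had a correlation above 0.9, with 7 animals and 12988 genes searched. The 12 genes were all different.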
